A study of Drosophila melanogaster with 2 samples.

Results

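The transposon features roo, rooA, Max-element, diver and 3S18 are the Drosophila melanogaster elements of the BEL/Pao superfamily followed here, and they were taken by these exact names from the piRNA count tables. They are 5 of the 1364 features listed in at least 1 of 2 libraries. All 5 were present in both libraries and passed the filter of 50 reads summed over the libraries, as did 438 features in all. The piRNA tables came from ovaries of females aged 3 to 5 days, from RNA of 18 to 30 nt. One library was made from pelo1/+ females, which carry the pelo allele 1 over a normal chromosome, and the other from peloPB60/1 females, which carry the alleles PB60 and 1. Both genotypes therefore share the allele 1, and pelo1/+ is a heterozygote and not a wild type. There was 1 library per genotype, so every comparison is between 2 libraries, has no replicate check and carries no test, and all intervals cover counting error only.

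BEL/Pao elements are retrotransposons with long terminal repeats (LTRs) that copy themselves through an RNA intermediate, using a reverse transcriptase of their own. They form a superfamily apart from the gypsy and copia types of LTR element. roo is one of the most numerous LTR elements of the fly genome, and rooA is a diverged relative of it. In the ovary, piRNAs cut from transposon transcripts and piRNA clusters guide Piwi proteins to matching transposon RNA and so silence it. The gene pelo encodes a factor that rescues stalled ribosomes and is needed in the female germline.

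The piRNA tables held 5229331 reads in pelo1/+ and 4872519 reads in peloPB60/1, and the miRNA tables of the same libraries held 1819781 and 1999224 reads. Levels are in CPM, which counts how many of 1000000 reads in the piRNA table of a library fell on a feature. In whole bulk ovaries, fewer cells of a type and less RNA per cell cannot be told apart. The ovary markers were all present in the miRNA tables. The 2 follicle cell miRNAs, miR-989 and miR-318, summed to 183145 CPM of the miRNA table in pelo1/+ and 452435 CPM in peloPB60/1, with miR-989 higher in the latter and miR-318 at 9252 and 8912 CPM. The female germline miRNA miR-184 was at 32758 and 37247 CPM. Markers of other tissues were also found. The muscle pair miR-1 and miR-133 summed to 2225 and 6905 CPM, nearly all of it from miR-1, with 12 reads of miR-133 in each library. The nervous and sensory pair miR-124 and miR-263a summed to 9925 and 18021 CPM, nearly all of it from miR-263a. The testis pair miR-964 and miR-972 summed to 34.6 and 36.0 CPM, most of it from miR-964. There were only 2 reads of miR-972 in pelo1/+ and 9 in peloPB60/1. None of these 9 hairpins was at 0 in either library. The part of these differences in the transposon values below was not tested.

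Together the 5 elements took 12.6% of the piRNA table in pelo1/+ (660487 reads, 95% Wilson interval 12.60 to 12.66%) and 11.4% in peloPB60/1 (553571 reads, 11.33 to 11.39%). The summed share in peloPB60/1 was 0.900 times that in pelo1/+ (95% interval 0.896 to 0.903, log2 ratio -0.15). Its direction depended on the scaling, with log2 ratios of 0.032 with TMM and 0.065 with median-of-ratios factors, 2 methods that scale to the bulk of the features. More than any other kind, that bulk held features tagged with another species, 233 of the 438 tested. Scaled to the piRNA table, their median log2 ratio was -0.36. It was 0.02 for the 153 features with neither a species tag nor an interval as name. The sum held differences in opposite directions. roo and rooA together went from 5.66% of the table in pelo1/+ to 3.59% in peloPB60/1, a ratio of 0.635. Max-element, diver and 3S18 together went from 6.97% to 7.77%, a ratio of 1.11. The sum depended on which elements were in it. Without roo the ratio of the summed shares was 1.04, and without Max-element it was 0.703.

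**Figure D1:**
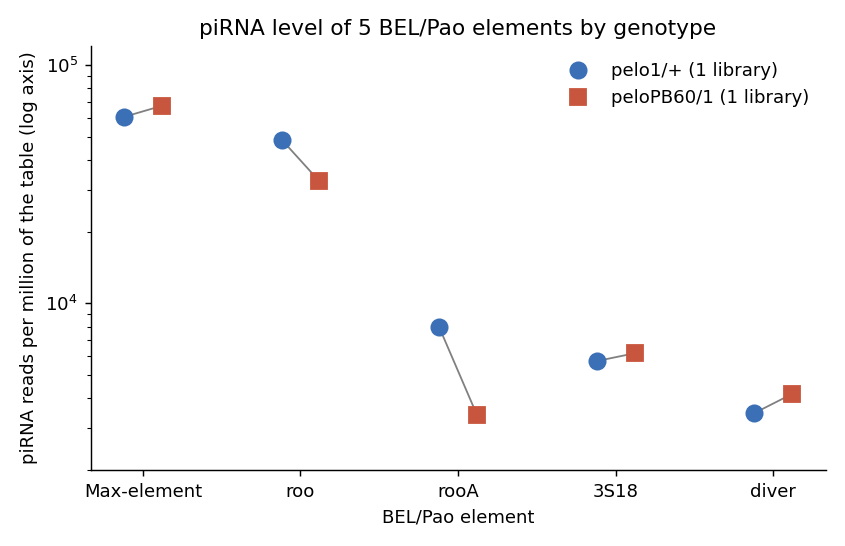
piRNA level of each BEL/Pao element in the 2 libraries, as CPM of the piRNA table on a log axis, with 1 point per library and no error bar because there is 1 library per genotype. The level of rooA was 7964 CPM in pelo1/+ and 3412 CPM in peloPB60/1, while Max-element, 3S18 and diver were slightly higher in peloPB60/1.

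rooA showed the largest difference of the 5. It had 41646 reads (7964 CPM) in pelo1/+ and 16626 reads (3412 CPM) in peloPB60/1. Its level was 2.33-fold lower in peloPB60/1 (log2 ratio -1.22, 95% counting interval -1.25 to -1.20). The call rule asked for a difference of 2-fold or more and an interval that did not reach 0 on the log2 scale, and rooA was the 1 member that met it, on the lower side. Over all 438 tested features 15.8% were called lower and 2.97% higher, so 1 lower call among 5 is close to the background. Lower calls were less frequent among features named like the 5, with neither a species tag nor an interval as name. Of 153 such features 12 were called lower and 3 higher, against 48 lower and 5 higher of 233 species-tagged ones. With a 1.5-fold rule rooA was again the 1 member called, against 28.3% of all features lower and 8.45% higher. roo missed that rule narrowly, at 1.495-fold. It was past 1.5-fold with the total of both tables (log2 ratio -0.65), the miRNA total (-0.82) and without the 10 most abundant features (-0.60). With a 4-fold rule 0 of the 5 were called, against 4.11% lower and 0.228% higher. The lower calls were mostly of rare features. Among the 94 features with at least 10000 summed reads, 6.38% were called lower and 3.19% higher, and rooA was the third lowest of them by log2 ratio, after invader6 (-1.81) and invader3 (-1.35), which are LTR elements of the gypsy type. BS3 and Juan, both non-LTR elements, followed at -1.19 and -1.18.

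roo itself had 254355 reads (48640 CPM) in pelo1/+ and 158484 reads (32526 CPM) in peloPB60/1. Its level in peloPB60/1 was 0.669 times that in pelo1/+ (log2 ratio -0.58, interval -0.59 to -0.57). The counting interval excluded no difference, but the size, 1.495-fold, was under 2-fold and just under 1.5-fold. Of the 94 abundant features, 11 had a lower log2 ratio than roo and 82 a higher one. roo stayed near the top of the tables, at rank 6 in pelo1/+ and rank 7 in peloPB60/1.

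Max-element, the most abundant of the 5, had 316356 reads (60497 CPM) in pelo1/+ and 327994 reads (67315 CPM) in peloPB60/1. Its log2 ratio was 0.15 (interval 0.15 to 0.16), and it had rank 3 in pelo1/+ and rank 2 in peloPB60/1. 3S18, also known as BEL, had 29982 reads (5733 CPM) and 30123 reads (6182 CPM). Its log2 ratio was 0.11 (interval 0.09 to 0.13), with rank 42 in pelo1/+ and 43 in peloPB60/1. diver had 18148 reads (3470 CPM) in pelo1/+ and 20344 reads (4175 CPM) in peloPB60/1, for a log2 ratio of 0.27 (interval 0.24 to 0.30), and it went from rank 59 to rank 54. These 3 elements lay slightly above equality, none was called, and their log2 ratios were close to the median of the 94 abundant features, 0.12.

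**Figure D2:**
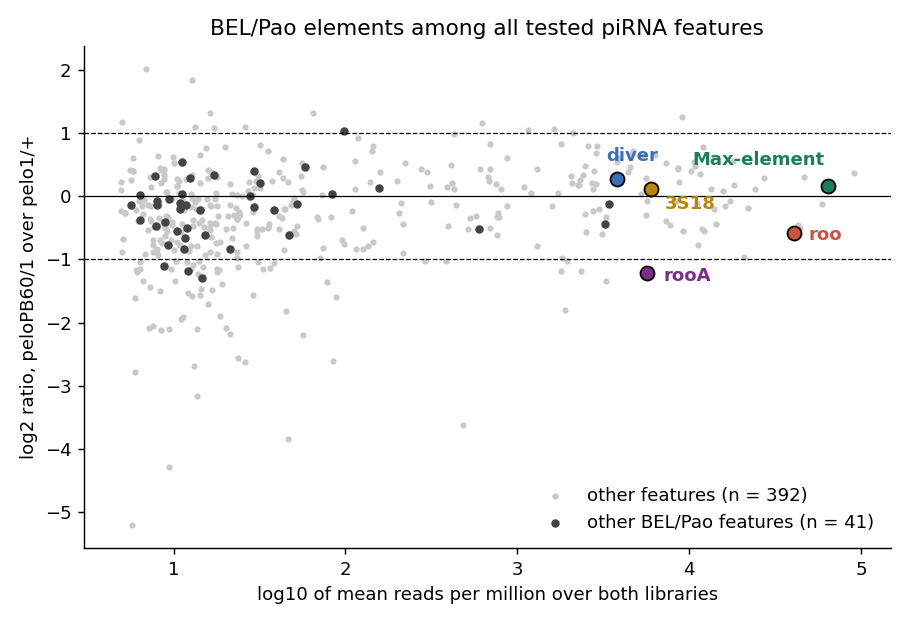
Log2 ratio of peloPB60/1 over pelo1/+ (vertical axis) against log10 of the mean CPM of both libraries (horizontal axis) for the 438 tested piRNA features, with 1 point per feature. Dashed lines mark 2-fold, coloured points are the 5 elements and black points are 41 other BEL/Pao features. rooA at -1.22 is the 1 coloured point beyond a dashed line, and most of the features further below it are rare.

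The order of the elements by reads differed between the libraries. In pelo1/+ it was Max-element, roo, rooA, 3S18 and diver, and in peloPB60/1 it was Max-element, roo, 3S18, diver and rooA. rooA thus moved from the middle to the last place, and from rank 35 to rank 57 among all features. Neighbours in both orders were separated by more than the counting error of their shares, which is the one error that can be given here. Within the reads of the 5 elements, Max-element took 47.9% in pelo1/+ and 59.3% in peloPB60/1. The part of roo was 38.5% and 28.6%, and that of rooA was 6.31% and 3.00%. 3S18 took 4.54% and 5.44%, and diver 2.75% and 3.68%.

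Ratios between elements of the same library need no scaling between libraries, so all 10 pairs were compared. There were 6.11 reads of roo per read of rooA in pelo1/+ and 9.53 in peloPB60/1, so the ratio was 1.56 times as large in the latter (exact conditional interval 1.53 to 1.59). Both elements were lower in peloPB60/1, and rooA more so than roo. Max-element gave 1.24 reads per read of roo in pelo1/+ and 2.07 in peloPB60/1, a quotient of 1.66 (interval 1.65 to 1.68). The largest quotient was that of rooA and diver. It went from 2.29 reads of rooA per read of diver in pelo1/+ to 0.817 in peloPB60/1, a quotient of 0.356 (interval 0.347 to 0.366), and so crossed equality. The same crossing was seen for rooA and 3S18, at 1.39 and 0.552 reads per read.

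The 3 pairs that moved at least 2-fold all contained rooA, with Max-element, 3S18 or diver as partner. In 7 of the 10 pairs the quotient was at least 1.5-fold in size, and these 7 were every pair that contained roo or rooA. The 3 pairs among Max-element, 3S18 and diver moved least. Max-element per 3S18 went from 10.6 to 10.9 (quotient 1.03, interval 1.01 to 1.05), Max-element per diver from 17.4 to 16.1 (0.925, interval 0.906 to 0.944) and 3S18 per diver from 1.65 to 1.48 (0.896, interval 0.874 to 0.920). Every one of the 10 intervals excluded 1, but these cover counting error at high read numbers and not the spread between flies or preparations.

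**Figure D3:**
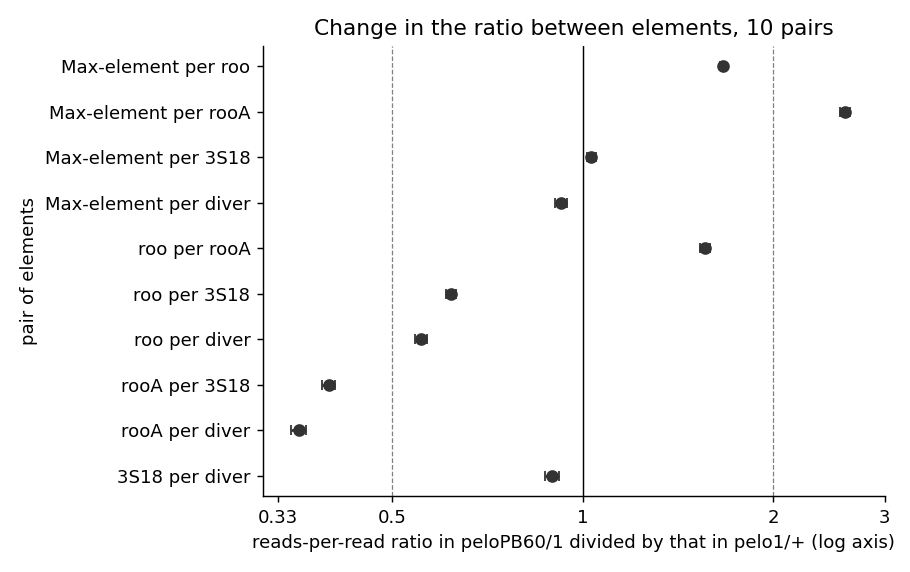
Quotient of the reads-per-read ratio in peloPB60/1 over that in pelo1/+ for the 10 pairs of BEL/Pao elements, on a log axis. Bars are exact 95% conditional intervals for counting error, the solid line marks 1 and the dashed lines 2-fold. Pairs of Max-element, 3S18 and diver lie near 1, between 0.896 and 1.03, and rooA per diver lies farthest out at 0.356.

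The choice of scaling set how far from 0 the single log2 ratios lay, but not their order. Against scaling to the piRNA table, TMM factors added 0.18 to every log2 ratio, median-of-ratios factors added 0.22 and the total of the miRNA table shifted them by -0.24, and the median of all 438 features moved with them from -0.22 to -0.03, 0.00 and -0.45. Relative to that median of all features, rooA lay at -1.01, roo at -0.37, 3S18 at 0.32, Max-element at 0.37 and diver at 0.48 under any of these scalings. Most of the 438 features are less abundant than the 5 elements. Relative to the median of the 94 abundant features, rooA lay at -1.34, roo at -0.70, 3S18 at -0.01, Max-element at 0.04 and diver at 0.15. rooA stayed called lower under all 7 alternative scalings, from -1.46 with the miRNA total to -1.01 with median-of-ratios factors, the latter just past the 2-fold limit. roo was below 0 under all of them, from -0.82 to -0.36. diver was above 0 under all of them, at 0.03 with the miRNA total. Max-element and 3S18 were above 0 except with the miRNA total, where they were at -0.08 and -0.13.

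**Figure D4:**
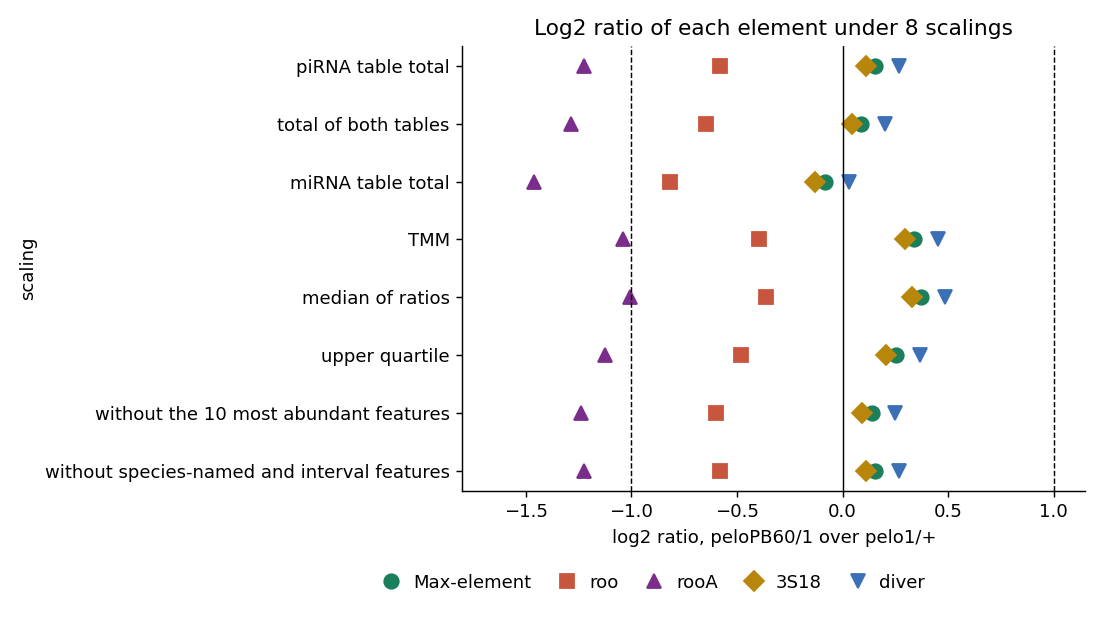
Log2 ratio of peloPB60/1 over pelo1/+ of each BEL/Pao element (horizontal axis) under 8 scalings of the 2 libraries (rows), with 1 point per element. Each scaling moves all 5 points by the same amount. rooA lies at or beyond the dashed 2-fold line at -1 in every row, and Max-element and 3S18 cross 0 with the miRNA table total only.

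The elements next in abundance to each of the 5 were compared with it. In pelo1/+ the neighbours of rooA in rank among features without a species tag or an interval as name were Chimpo_I, just above, and jockey, a non-LTR element just below. Their log2 ratios were 0.22 and 0.43, against -1.22 for rooA. The neighbours of roo were the non-LTR element Doc at -0.45 and the LTR element GATE at 0.30. Those of Max-element were the non-LTR elements F-element at -0.13 and Rt1b at -0.50, and those of 3S18 were gypsy4 at -0.08 and Ivk at 0.18. diver stood between the DNA transposon transib2 at -0.12 and Juan at -1.18.

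The abundant named feature with the log2 ratio most like that of each element was also looked up. Over only 2 libraries, many features share a ratio, so this is a weak likeness. For rooA it was BS3, with 2509 and 1099 CPM in pelo1/+ and peloPB60/1. For roo it was accord2, a gypsy-type element, at 3007 and 2031 CPM (log2 ratio -0.57). NOF was nearest to Max-element (0.15), TART, a telomeric element, to 3S18 (0.10) and flea to diver (0.28).

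The piRNA tables list 76 further features with BEL/Pao names, 71 of them tagged with another Drosophila species. Such a name starts with BEL or is a form of roo, ninja, aurora, batumi or diver, so other BEL/Pao features may be missed. The 76 held 46862 reads in pelo1/+ and 36447 reads in peloPB60/1. The 5 elements made up 93.4% and 93.8% of the reads on these names and their own together. Of the 76, 41 passed the filter, of which 1 was called higher, 3 lower and 37 neither. Over all 438 tested features 2.97% were called higher and 15.8% lower. The median log2 ratio of the 41 was -0.15, against -0.22 over all tested features. The intervals of 3 lay wholly above 0 and those of 12 wholly below 0, while 26 held 0. By sign alone 29 of the 41 were below 0, and so were 274 of all 438, so the lean to lower values is not particular to these names.

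The most abundant of them was Dsim\ninja, named for an element of Drosophila simulans, with 3540 and 3261 CPM in pelo1/+ and peloPB60/1 (log2 ratio -0.12). diver2, a relative of diver, was at 3752 and 2760 CPM (-0.44). Its ratio lay on the other side of 0 from that of diver. aurora-element was at 706.4 and 490.7 CPM (-0.53). The other named features were rare. BEL-4_DWil-I had 339 and 646 reads and was called higher (2.04-fold), which was the 1 higher call. BEL-6_DWil-I, BEL-10_DWil-I, BEL-5_DWil-LTR, BEL-13_DTa-I and BEL1-I_Dya had log2 ratios of 0.03, 0.45, -0.13, -0.62 and -0.22, and none was called. The 3 lower calls, named because they were few, were BEL-14_DWil-I from 109 and 41 reads, BEL-3_DTa-I from 89 and 36 reads and BEL-9_DTa-I from 63 and 27 reads.

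Some of these names contain that of one of the 5, and their sequences may overlap it. ROO_I had 781 and 794 reads and ROO_LTR 7 and 1, while DIVER_I had 13 and 6. ROO_I thus amounted to 0.307% of the reads of roo in pelo1/+ and 0.501% in peloPB60/1. Its log2 ratio was 0.13 with an interval that held 0, whereas that of roo was -0.58. How reads that match several of these names were assigned is not given in the sources used here, so reads of roo and rooA may be split or shared as well. Of the 35 further BEL/Pao features named as LTRs, 1 passed the filter, with a median of 5 summed reads over the 35. Of the 41 others, 40 passed, and their median was 121 summed reads. Features named as LTRs are shorter than the internal parts, and these reads are not per length.

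Other retrotransposon lists were set beside the 5 elements. Of 17 other LTR elements, 0 were called higher and 1 lower, with a median log2 ratio of 0.08 and a range from -1.35 to 0.79. Of 4 copia-type elements found, 0 were called in either direction, with a median of 0.60. Of 11 non-LTR elements, 1 was called lower and 0 higher, with a median of -0.24. Over all 438 tested features 15.8% were called lower and 2.97% higher, and over the 94 abundant ones 6.38% and 3.19%. The 5 BEL/Pao elements had a median of 0.11, from -1.22 for rooA to 0.27 for diver, and the 89 other abundant features had a median of 0.12. The median of the 5 thus lay close to that of the other abundant features, with rooA and roo below it.

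Read numbers of different elements are not per length, and an element with more copies offers more sequence to match. The Ensembl annotation of the genome build BDGP6 was therefore used to count annotated copies of each element in the reference strain. This is a later build than the BDGP5 named in the submitters' processing notes and it does not show the insertions of the sequenced flies. It holds 144 copies of roo spanning 1081 kb, 24 of Max-element spanning 73.1 kb, 20 of 3S18 spanning 77.0 kb, 17 of rooA spanning 62.1 kb and 13 of diver spanning 67.6 kb. The spans include other elements nested in a copy. All annotated copies of these elements lie on the chromosome arms. Any copies in other sequence are left out of the spans, while their reads would still be in the counts.

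**Figure D5:**
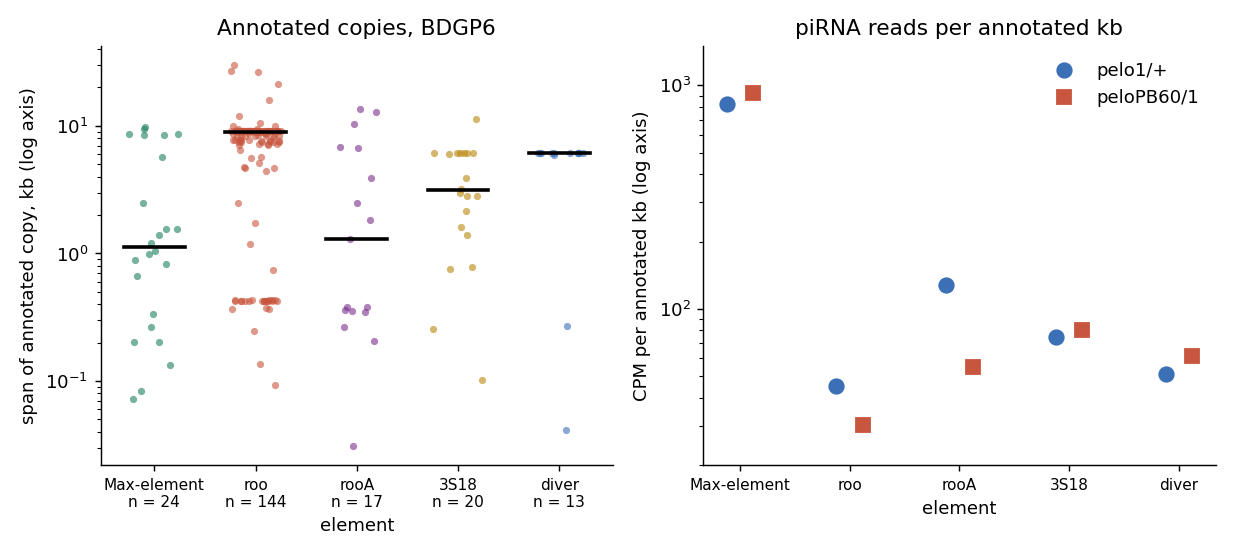
Left, span in kb (log axis) of every annotated BDGP6 copy of each BEL/Pao element, with 1 point per copy and a bar at the median. Right, CPM per annotated kb (log axis) in each library. roo has 144 copies, most of them long, and the lowest density, while Max-element has the highest density in both libraries, 827 and 921 CPM per kb.

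Per annotated kb, Max-element had 827 CPM in pelo1/+ and 921 CPM in peloPB60/1, which was rank 2 of 114 elements with annotated copies in each library. rooA had 128 CPM per kb in pelo1/+ (rank 27) and 54.9 in peloPB60/1 (rank 60). 3S18 was at 74.5 and 80.3 CPM per kb and diver at 51.3 and 61.8. roo had the lowest density of the 5, at 45.0 and 30.1 CPM per kb, although by reads it came after Max-element alone. In pelo1/+ rooA therefore had a higher density than roo, 3S18 and diver, whereas in peloPB60/1 it lay below 3S18 and diver and above roo. Across the 77 abundant elements with annotated copies, the number of copies and the log2 ratio had a Pearson correlation of -0.19 (copies on a log2 scale) and a Spearman correlation of -0.26. Both are a description of elements that share the same 2 libraries.

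The copies also differed in length and place. Of the 144 roo copies, 77.8% spanned at least 5 kb, and the median was 8990.5 bp. There were 70 copies between 8500 and 9500 bp and a separate set of 18 between 400 and 450 bp. diver was also mostly long, with 10 of 13 copies between 6000 and 6200 bp and a median of 6133 bp. 3S18 had 7 of 20 copies in the same band and a median of 3117 bp. rooA and Max-element had the shortest medians of the 5, at 1298 and 1128 bp, and 47.1% and 45.8% of their copies spanned under 1 kb.

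roo was spread over the chromosome arms, with 29 copies on X, 26 on 2L, 28 on 2R, 33 on 3L and 28 on 3R. The others were uneven. Of the 17 rooA copies 9 were on 2R, and 2 were on the small chromosome 4. Max-element had 13 of 24 copies on 2R, 7 on 3L and 4 on 2L, with 0 on X and 0 on 3R. 3S18 had 7 copies each on 2R and 3L and 6 on X, and 0 on 2L and 3R. diver was on every large arm, with 2 on X, 2 on 2L, 4 on 2R, 2 on 3L and 3 on 3R.

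Of the roo copies, 77 (53.5%) lay within introns of protein-coding genes without touching an exon, 13 overlapped an exon and 54 were intergenic. Within introns, 38 lay on the strand of the gene and 39 on the opposite strand. The intronic share was 35.3% for rooA (6 copies), 35.0% for 3S18 (7 copies), 16.7% for Max-element (4 copies) and 15.4% for diver (2 copies). The piRNA counts are summed over all copies of an element, so no read can be tied to any of these places.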

How the data were processed

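Per the labels' protocols, ovarian small RNAs of 18 to 30 nt were size-selected and sequenced with Illumina chemistry. Each library has 1 piRNA and 1 miRNA table, and the deposited numbers are unnormalized read counts, all of them whole. The submitters' processing notes name Bowtie 0.12.7 and the build BDGP5 and give no role for either. Not given in the sources used here are the repeat reference, mismatches, strand, adapter trimming and the treatment of reads with several matches. A feature listed for 1 library was given 0 in the other. The limit that a count of 0 sets is 3 counts, or 0.574 CPM in pelo1/+ and 0.616 CPM in peloPB60/1, and the 5 elements all lay far above it.

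Groups came from the genotype labels. Each count was scaled by the sum of its table, and that sum is the depth of a read class, not of the library. Log2 ratios of peloPB60/1 over pelo1/+ used 0.5 counts added to each count and features with at least 50 summed reads. Their 95% intervals are exact conditional (Clopper-Pearson) intervals of the unmodified counts. Reads carry no molecular identifiers, so intervals and floors cover counting error only. Ratios between elements have exact conditional odds ratio intervals (Python 3.11.15, scipy 1.17.1). edgeR 4.0.16 and DESeq2 1.42.0 were used for factors alone. Calls and intervals were tested on simulated counts with counting error only, which leaves out the spread between flies or preparations.

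The 5 elements, the lists and the rules for named features were chosen with earlier results of these data known. Named features are the 5 elements, the 10 other BEL/Pao features with the most reads, the named feature of at least 10000 summed reads nearest in log2 ratio to each element, and its neighbours in rank in pelo1/+. Features named beyond this are the lowest abundant ones, the called rare BEL/Pao features and the name variants ROO_LTR and DIVER_I, chosen after their values were seen. The list name Copia2 had no feature. Copies were counted in the Ensembl annotation of BDGP6, and no coordinates of it are given. The names Max and Max-element in that annotation were taken as Max-element.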

Additional observations from a re-analysis of the deposited data

How the results depend on the processing

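No paired analysis was possible because either genotype is represented by 1 library here, which also means that none could be dropped. The count of called elements was 1 (rooA, lower) under every scaling and read filter tried and with a 1.5-fold rule. It was 0 with a 4-fold rule, and 0 when roo and rooA were summed as 1 feature, because roo holds most of those reads. The log2 ratio of the summed share, -0.15, was -0.22 with the total of both tables, -0.39 with the miRNA total, -0.17 without the 10 most abundant features and -0.054 with upper quartiles. It changed sign to 0.032 with TMM factors and 0.065 with median-of-ratios factors. Leaving out 1 element at a time gave 0.062 without roo, -0.10 without rooA, -0.51 without Max-element, -0.17 without diver and -0.17 without 3S18. The quotient of roo to rooA was 1.56 with 0.5 or 1 counts added and when ROO_I and ROO_LTR were added to roo, the last an alternative chosen after seeing the data. Additions this small beside the reads of roo and rooA could hardly move that quotient. The median of the other BEL/Pao features lay between -0.15 and -0.12 with filters of 1, 10 and 200 reads. Of 47 values of single elements under alternatives, 27 moved beyond their counting interval, in each case through the scaling.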
